A study of Homo sapiens with 14 samples.

Results

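The values below are gene by gene differences between a pair of androgen responses in LNCaP cells, the response with protein synthesis blocked and the response with it running. LNCaP, established from a lymph node metastasis of prostate cancer, is a human cell line that expresses the androgen receptor. All cultures were plated for 36 h and kept without steroids for 48 h before 24 h of treatment. The treated groups received 1 nM R1881 (methyltrienolone, a synthetic androgen) together with 25 µg/ml cycloheximide (CHX, which stops translation on ribosomes), R1881 alone or CHX alone, and the control received none of these. In the combined treatment both agents were added at the same time, and every group was in charcoal-stripped serum without phenol red. RNA of each treated culture competed with control RNA on 2-colour microarrays in 2 independent culture experiments, each hybridised in both dye orientations, which gave the 12 arrays used here of 14 in all. The other 2 arrays set RNA from CHX plus R1881 directly against RNA from CHX alone, as a dye swap. They were taken as experiment 1, but their titles give no replicate number.

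For each gene and experiment, the response with CHX was the log ratio of CHX plus R1881 minus that of CHX alone, in which the control cancels, and the response without CHX was the log ratio of R1881 alone. The interaction is the response without CHX minus the response with CHX, so a value above 0 means that the R1881 response was higher without CHX. Values are log2 ratios averaged over the dye orientations of an experiment, and a value after ± is the SD of the 2 experiments. There were 14547 genes with an interaction value. The direction of every sign is likely, not certain, since the deposited ratios do not state their numerator and were turned so that known androgen-induced genes lay above 0. The files hold ratios and no levels, so the identity of the cells could not be checked against their markers, and depth of signal is unknown.

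The androgen receptor is a transcription factor that moves to the nucleus and binds DNA once it has bound androgen. A target whose gene it binds directly can respond with no new protein, whereas a later target needs a protein that is itself made in response to androgen. Blocking translation is the classical way of separating these kinds of target, but over a day it also changes the stability of many transcripts and removes short-lived proteins.

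By a rule of size and sign given below, and not by a test, 85 genes had an R1881 response without CHX. Of these 85 genes, 73 had a much smaller or opposite response with CHX. Among the 73 were SCD5, TM4SF1, TMPRSS2, KLK3 and many genes of DNA replication and mitosis. In 9 genes at least 0.5 times the response remained with CHX, and in C1orf116 and ZBTB16 it was of about the same size in both experiments, and TNK2 responded with CHX and hardly without it. No gene passed the test for the interaction (limma on the 6 dye-averaged log ratios, Benjamini-Hochberg adjusted p under 0.05, 0 of 14547 genes, 0% called, lowest adjusted p 0.61). At an unadjusted p under 0.05 there were 357 genes (2.45% of genes), fewer than the 727 expected by chance. The response with CHX likewise gave 0 calls (0%), with 186 genes at an unadjusted p under 0.05, also below 727. Without CHX, 1 gene was called, TMPRSS2 (0.00687% of genes), and 921 genes had an unadjusted p under 0.05, above 727. Scale and quantile normalization, which widen the narrow R1881 arrays, gave 300 and 835 calls without CHX and 1 and 3 for the interaction. CHX alone was the strong treatment, with 5521 genes called (38%), of which 2983 rose (20.5%) and 2538 fell (17.4%). Across all genes the interaction of experiment 1 and that of experiment 2 had a Pearson correlation of 0.07, a description over genes that share arrays and are no independent replicates. What follows therefore describes sizes and their spread over experiments, and none of the single-gene differences is a call.

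Genes were sorted by a fixed rule. A response counted when its mean was at least 0.5 (log2) in size with 1 sign in all 4 combinations of experiment and dye orientation. Without CHX 85 genes had a response that counted, 67 above 0 and 18 below 0, and with CHX 31 genes did, 18 above 0 and 13 below 0. A counted response was lost when the response with CHX was under 0.5 times it, or opposite, and the interaction had the sign of the response in all 4 combinations. It was kept when the response with CHX had the same sign and at least 0.5 times its size, and larger with CHX in the mirror case of lost. This sorted 57 genes as lost from above 0 (0.392% of genes) and 16 as lost from below 0 (0.11%). The response was kept in 8 genes above 0 (0.055%) and 1 below 0 (0.00687%), and 3 counted genes fell in neither class. In 5 genes above 0 (0.0344%) and 8 below 0 (0.055%) the response was larger with CHX. The rule uses the interaction itself, so these classes carry no test, and picking genes for a high response without CHX makes a lower one with CHX more likely. Some lost responses reached 0.5 through 1 array without CHX. NUFIP1 had 1.76 and CCP110 1.33 in experiment 2 with treated RNA in Cy5, and at most 0.35 and 0.34 on their other arrays. VEGFA had −1.61 in experiment 1 with treated RNA in Cy3, and −0.01 to −0.30 on the others. Under scale and quantile normalization 279 and 572 genes were lost from above 0, all 57 among them both times. Both scalings widen the responses without CHX, which favours this class. At the edge of the classes, the response without CHX was 0.50 in both CHAF1A, just inside, and AKAP12, just outside, and −0.51 in SNRK, inside, and −0.49 in PRAC1, outside.

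**Figure D1:**
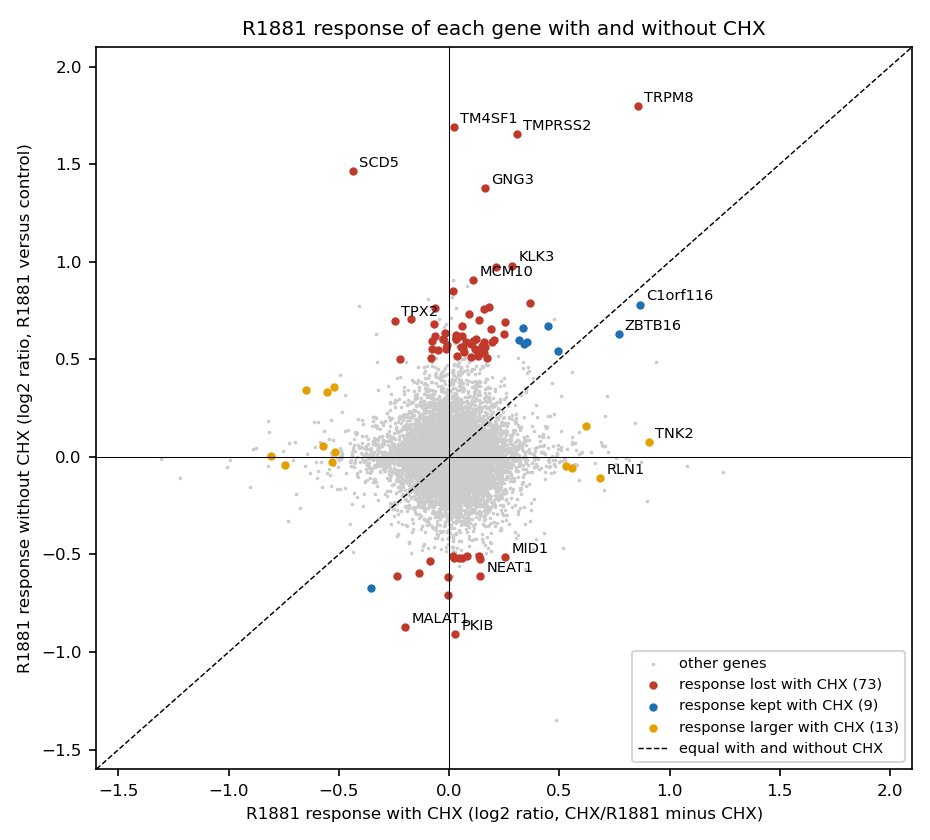
Each point is a gene, with its R1881 response with CHX on the horizontal axis and its response without CHX on the vertical axis, both log2 ratios averaged over 2 experiments. Most of the 73 genes with a lost response lie near 0 on the horizontal axis, with values up to 1.80 on the vertical one, while C1orf116 and ZBTB16 lie near the dashed line of equal responses.

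The promoters of a classical receptor target and of a replication gene are shown because both genes had a lost response and are of different kinds. The windows below are the 250 bases before the start of each gene in the RefSeq annotation of GRCh38.p14, both on the plus strand, KLK3 at chr19:50854665-50854914 and MCM10 at chr10:13161308-13161557. Capitals in KLK3 mark AGAACA, the half-site that the androgen receptor binds, which here starts 170 bases before the gene and is the first arm of the well-studied androgen response element of this promoter. Capitals in MCM10 mark 2 copies of CCAAT, the box bound by the factor NF-Y, which starts 118 and 105 bases before the gene and is common in cell-cycle promoters.
KLK3: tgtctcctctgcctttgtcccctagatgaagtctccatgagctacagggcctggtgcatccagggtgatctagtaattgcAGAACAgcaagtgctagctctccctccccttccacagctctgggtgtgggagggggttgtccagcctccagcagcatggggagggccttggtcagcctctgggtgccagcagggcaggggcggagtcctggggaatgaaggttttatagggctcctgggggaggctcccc
MCM10: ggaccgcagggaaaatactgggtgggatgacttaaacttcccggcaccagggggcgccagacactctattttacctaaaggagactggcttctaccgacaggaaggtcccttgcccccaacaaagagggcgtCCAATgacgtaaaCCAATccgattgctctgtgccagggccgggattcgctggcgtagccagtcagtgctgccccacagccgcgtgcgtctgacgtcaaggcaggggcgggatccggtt
Both motifs were searched on both strands in windows of 300 bases, 250 before to 50 after each start, and a gene counted if any of its windows held the motif. AGAACA was in 7 of the 51 genes with a window among those lost from above 0 (13.7%), against 1741 of 11577 measured genes with a window (15%). CCAAT was in 26 of the same 51 genes (51%), against 4977 of 11577 genes (43%). Of the 11 genes with a window among those lost from below 0, 3 held AGAACA (27.3%) and 4 held CCAAT (36.4%), and of the 5 among those kept above 0, 0 held AGAACA and 4 held CCAAT (80%). Of the 4 with a window among those larger above 0 with CHX, 1 held each motif, and of the 6 larger below 0, 0 held AGAACA and 2 held CCAAT. A match is a run of letters and not a shown binding site.

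By size of the interaction, the foremost lost responses were those of SCD5, TM4SF1, TMPRSS2 and GNG3. SCD5, a fatty acid desaturase, had −0.40 and −0.47 in the 2 experiments with CHX, against 1.27 and 1.66 without CHX. All 4 arrays without CHX lay above 1 and all 4 combinations with CHX lay below 0, and the interaction was 1.90 ± 0.33 (n = 2). The direct arrays gave −0.33 and −0.29 for R1881 in the presence of CHX. CHX alone left SCD5 at 0.00 relative to control. TM4SF1, a tetraspanin-like surface protein, had 0.35 and −0.31 with CHX, against 1.69 and 1.70 without CHX (interaction 1.67 ± 0.48). The experiments differed in sign with CHX and were alike without it.

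TMPRSS2, the androgen-driven serine protease of prostate epithelium, was the gene called without CHX. Its response was 0.31 and 0.31 with CHX, against 1.78 and 1.53 without CHX (adjusted p = 0.0202 by limma for the response without CHX, higher on 4 of 4 arrays). That call was lost when either experiment of R1881 alone or of CHX plus R1881 was left out. The responses with and without CHX did not overlap, which the rule of the class favours, and the interaction was 1.35 ± 0.17 (limma adjusted p = 0.61). On the direct arrays TMPRSS2 had 0.44 and 0.31, close to its response with CHX by subtraction. GNG3, a G protein γ subunit, had 0.23 and 0.10 with CHX, against 1.62 and 1.13 without CHX. TRPM8, a cold-activated calcium channel, had the highest response with CHX of the class, 0.84 and 0.88 with CHX, against 2.26 and 1.34 without CHX. Its interaction of 0.94 ± 0.68 came mostly from experiment 1, and its direct arrays gave 1.01 and 0.98.

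The kallikreins and FKBP5 were in the same class. KLK3, which encodes prostate-specific antigen, had 0.37 and 0.20 with CHX, against 0.99 and 0.97 without CHX (interaction 0.69 ± 0.11). Its 3 probes disagreed, with interactions of 1.18, −0.49 and 1.40, and the probe at −0.49 also had a response without CHX of −0.36, against 1.49 and 1.81 for the others. KLK2, a protease next to KLK3 and close to it in sequence, had 0.19 and 0.17 with CHX, against 0.89 and 0.64 without CHX, and its 2 probes had interactions of 1.40 and −0.23. Cross-hybridisation between kallikreins cannot be told from these ratios. The steroid receptor co-chaperone FKBP5 had 0.26 and 0.25 with CHX, against 0.61 and 0.77 without CHX (interaction 0.43 ± 0.12). With CHX alone KLK3 fell by 1.54 and KLK2 by 0.42 (limma adjusted p = 0.000182 and 0.0081), whereas FKBP5 had −0.09 and was not called.

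Of 41 measured genes in a list of androgen-induced genes, the response was above 0 in 32 with CHX and in 35 without CHX, with medians of 0.11 with CHX and 0.21 without CHX. The median interaction was 0.15, with 0.19 in experiment 1 and 0.02 in experiment 2, against −0.01 over all genes. In 12 members the interaction was above 0 in all 4 combinations and in 4 it was below 0 in all 4 (all genes 8.19% and 11.1%). The list served to set the sign of the ratios and its place above 0 is no finding. STEAP2, a metalloreductase of the prostate cell surface, had 0.19 and 0.56 with CHX, against −0.18 and −0.36 without CHX.

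**Figure D2:**
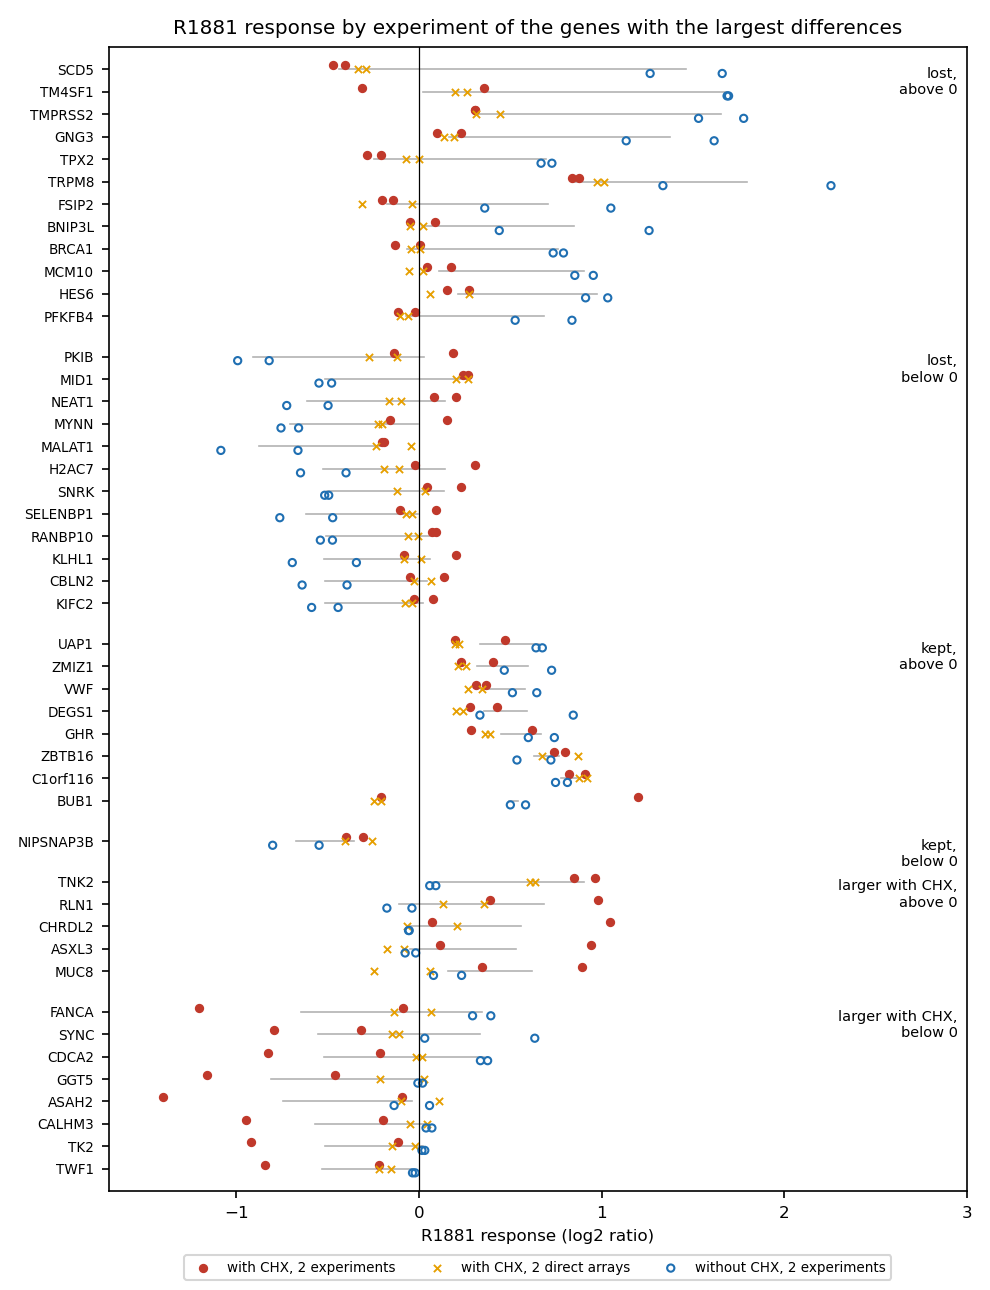
R1881 responses (log2 ratio, horizontal axis) of up to 12 genes per class and direction by size of the interaction. Filled points are the 2 experiments with CHX, crosses the 2 direct arrays of CHX plus R1881 against CHX, open points the 2 experiments without CHX, and grey lines join the means. In the lost classes most filled points and crosses gather near 0, but those of TRPM8 lie at 0.84 to 1.01 and those of SCD5 at −0.47 to −0.29. Among genes with a larger response with CHX only TNK2 has crosses beyond 0.6.

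Genes of DNA synthesis and mitosis were many among those with a lost response. Of the 57 genes lost from above 0, 9 were in the list of DNA replication and nucleotide supply and 7 in the list of mitosis genes, against 8 in the androgen-induced list. These lists had 39, 41 and 41 measured members among 14547 genes. Without CHX the mean response was above 0 in all 39 replication and all 41 mitosis genes. A lost response needs a response without CHX, so these counts also depend on which genes responded without CHX. MCM10, which loads the replication machinery at origins, had 0.04 and 0.18 with CHX, against 0.85 and 0.95 without CHX, and an interaction of 0.80 ± 0.02. CHAF1A, the large subunit of the chromatin assembly factor that follows replication forks, had −0.09 and −0.35 with CHX, against 0.38 and 0.63 without CHX. RRM2, the subunit of ribonucleotide reductase that limits the supply of deoxynucleotides, had 0.26 and −0.09 with CHX, against 0.78 and 0.69 without CHX. RFC4, a subunit of the clamp loader, had −0.05 and −0.11 with CHX, against 0.50 and 0.60 without CHX. In each of these 4 genes the lower experiment without CHX was above the higher experiment with CHX. The rule that chose these genes favours such a gap, so it adds no support.

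TPX2, a spindle assembly factor that activates Aurora A, had −0.21 and −0.29 with CHX, against 0.67 and 0.73 without CHX (interaction 0.94 ± 0.10). HMMR, a spindle and hyaluronan-binding protein, had −0.20 and 0.07 with CHX, against 0.64 and 0.60 without CHX. ECT2, an exchange factor for RhoA in cytokinesis, had −0.17 and 0.00 with CHX, against 0.39 and 0.62 without CHX. NDC80, a subunit of the complex that ties kinetochores to microtubules, had −0.06 and 0.13 with CHX, against 0.62 and 0.60 without CHX. Neither experiment of these 4 genes had a response above 0.13 with CHX or below 0.39 without it, a gap that their choice by the same rule favours. BRCA1, which acts in homologous recombination, followed the same course, with 0.00 and −0.13 with CHX, against 0.73 and 0.79 without CHX.

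Over the whole lists the shift was broad. The interaction was above 0 in 37 of 39 genes of DNA replication and in 41 of 41 mitosis genes, against 47.2% of all genes. In 25 of the replication genes (64.1%) and 22 of the mitosis genes (53.7%) it was above 0 in all 4 combinations of experiment and dye, against 8.19% of all genes, and in 0 genes of either list was it below 0 in all 4, against 11.1%. No member of either list was called, and 6 replication genes and 9 mitosis genes had an unadjusted p under 0.05. The median response of replication genes was 0.01 with CHX, against 0.34 without CHX, and that of mitosis genes was 0.02 with CHX, against 0.34 without CHX. The median interaction was 0.41 in experiment 1 and 0.22 in experiment 2 for replication, and 0.48 and 0.19 for mitosis, so experiment 1 had the higher value in both lists and the sign was the same. Genes of these lists share cultures and arrays and are not independent.

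With CHX alone, 24 of the 39 replication genes fell and 1 rose, and 22 of the 41 mitosis genes fell and 4 rose, against 17.4% and 20.5% of all genes. RRM2 fell by 2.80, MCM10 by 0.52 and RFC4 by 1.20. The same held for the class as a whole: of the 57 genes lost from above 0, 32 fell and 8 rose with CHX alone. In this bulk RNA, fewer cells in S phase or mitosis and less of these transcripts per cell cannot be told apart. The part of the fall with CHX alone in the smaller response was not tested. Of the 57 genes, 9 had a value under 0.1 in size for CHX alone, and their responses with CHX ranged from −0.44 in SCD5 to 0.86 in TRPM8, 5 above 0 and 4 below 0.

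**Figure D3:**
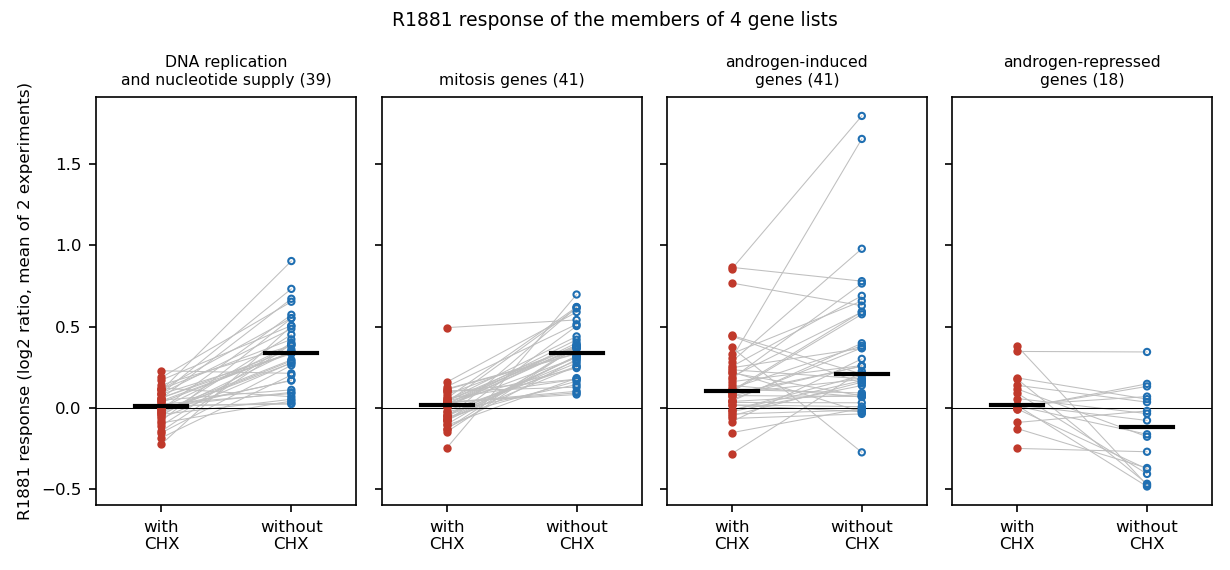
R1881 responses (log2 ratio, mean of 2 experiments) of each measured member of 4 gene lists, with CHX at the left and without CHX at the right of each panel. Grey lines join a gene's values and black bars are list medians, which for replication are 0.01 with CHX and 0.34 without CHX.

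The other members with large interactions were of varied function. FSIP2, a protein of the sperm tail, and BNIP3L, a mitophagy receptor, had interactions of 0.88 ± 0.53 and 0.83 ± 0.68, carried mostly by experiment 2. HES6, a transcription factor of the Hairy family, had 0.27 and 0.15 with CHX, against 0.91 and 1.03 without CHX. PFKFB4, which makes the fructose bisphosphate that stimulates glycolysis, had −0.02 and −0.12 with CHX, against 0.53 and 0.84 without CHX. The direct arrays measured R1881 with CHX in other hybridisations, and over all genes the pair correlated at only 0.01. Their mean was under 0.5 times the response without CHX in 55 of the 57 genes, the exceptions being TRPM8 and SLC39A6, and its median over the class was 0.02, against a median response without CHX of 0.60. A direct mean under 0.25, which is 0.5 times the smallest response that counts, was found in 98% of all genes, so the count of 55 says little about the class.

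The 16 responses lost from below 0 included a pair of long nuclear RNAs. MALAT1, an abundant RNA of nuclear speckles, had −0.19 and −0.20 with CHX, against −1.09 and −0.66 without CHX (interaction −0.68 ± 0.31). NEAT1, the scaffold of paraspeckles, had 0.20 and 0.08 with CHX, against −0.72 and −0.50 without CHX (interaction −0.75 ± 0.24). Neither RNA had a response with CHX below −0.20 in an experiment. Being noncoding, these transcripts are not themselves translated. Of the other measured members of their list, GAS5 had an interaction of −0.15 and MEG3 of −0.01.

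PKIB, an inhibitor of protein kinase A, had −0.14 and 0.19 with CHX, against −0.82 and −0.99 without CHX. MID1, a microtubule-bound ubiquitin ligase, had 0.24 and 0.27 with CHX, against −0.48 and −0.55 without CHX, an opposite response in both experiments (interaction −0.77 ± 0.07, direct arrays 0.20 and 0.27). MYNN, a zinc finger protein, had −0.16 and 0.15 with CHX, against −0.66 and −0.76 without CHX. The next genes by size of the interaction were the histone H2AC7 (−0.67), the kinase SNRK (−0.64), the selenium-binding protein SELENBP1 (−0.61), RANBP10 (−0.59), the kelch protein KLHL1 (−0.58), the synaptic organiser CBLN2 (−0.56) and the kinesin KIFC2 (−0.54). With CHX alone 8 of the 16 fell and 3 rose, against 17.4% and 20.5% of all genes.

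Few responses were kept. C1orf116, known as specifically androgen-regulated gene, had 0.91 and 0.82 with CHX, against 0.81 and 0.75 without CHX, and the direct arrays gave 0.88 and 0.92. ZBTB16, the transcriptional repressor PLZF, had 0.80 and 0.74 with CHX, against 0.54 and 0.72 without CHX, with 0.67 and 0.87 on the direct arrays. Their interactions were −0.08 ± 0.01 and −0.14 ± 0.17. In both genes the mean of each experiment, with and without CHX, and both direct arrays were above 0.5. The lowest single array without CHX was 0.48, for ZBTB16 in experiment 1 with treated RNA in Cy3. The 2 probes of C1orf116 had 1.07 and 0.66 with CHX, against 1.07 and 0.49 without CHX. Scale normalization turned the interactions of C1orf116 and ZBTB16 to 0.74 and 0.52, and quantile normalization to 1.14 and 1.09. The growth hormone receptor GHR had 0.62 and 0.28 with CHX, against 0.60 and 0.74 without CHX.

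Partly kept responses were those of UAP1, which makes UDP-N-acetylglucosamine (0.33 ± 0.20 with CHX, against 0.66 ± 0.02 without CHX), ZMIZ1, a coactivator of the androgen receptor (0.32 ± 0.12, against 0.60 ± 0.18 without CHX), the clotting protein VWF (0.34 ± 0.04, against 0.58 ± 0.09 without CHX) and DEGS1, a desaturase of ceramide synthesis (0.35 ± 0.11, against 0.59 ± 0.36 without CHX). BUB1, a kinase of the spindle checkpoint, met the rule by its mean alone: it had −0.21 and 1.20 with CHX, against 0.50 and 0.58 without CHX, and −0.21 and −0.25 on the direct arrays. Its value of 2.24 in experiment 2 with treated RNA in Cy5 stood apart from −0.33 to 0.16 in the other combinations. Below 0, NIPSNAP3B had −0.40 and −0.31 with CHX, against −0.55 and −0.80 without CHX. On the direct arrays 4 of the 8 genes kept above 0 had at least 0.5 times the response without CHX.

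Among genes with a larger response with CHX, 1 was alike in both experiments and on the direct arrays. TNK2 (ACK1), a tyrosine kinase known to phosphorylate the androgen receptor, had 0.96 and 0.85 with CHX, against 0.09 and 0.06 without CHX, and 0.61 and 0.64 on the direct arrays. Its interaction was −0.83 ± 0.06, it was below 0 in all 4 combinations, and it rose with CHX alone by 0.48. RLN1, the hormone relaxin, had 0.39 and 0.98 with CHX, against −0.04 and −0.18 without CHX, and 0.35 and 0.13 on the direct arrays. Its transcript fell by 3.84 with CHX alone. The bone morphogenetic protein antagonist CHRDL2 (1.05 and 0.07 with CHX), the chromatin protein ASXL3 (0.94 and 0.12) and the mucin MUC8 (0.35 and 0.89) each owed most of their response with CHX to 1 combination of experiment and dye. It was 2.07 for CHRDL2 and 1.76 for ASXL3 in experiment 1 with treated RNA in Cy3, and 1.68 for MUC8 in experiment 2 with treated RNA in Cy5, while the other combinations lay between 0.02 and 0.52. RLN1 likewise had 1.70 in experiment 2 with treated RNA in Cy5, and 0.26 to 0.42 in the others. On the direct arrays, which were taken as experiment 1, ASXL3 had −0.17 and −0.08 and CHRDL2 had 0.21 and −0.06.

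The 8 genes with a larger response below 0 with CHX were likewise uneven, and in CDCA2, GGT5, ASAH2, CALHM3, TK2 and TWF1 1 combination of experiment and dye lay at −1.39 or below and the others at −0.71 or above. FANCA, a DNA crosslink repair protein, had −0.09 and −1.20 with CHX, against 0.29 and 0.39 without CHX. CDCA2, a mitotic phosphatase subunit, had −0.21 and −0.83 with CHX, against 0.34 and 0.38 without CHX. In GGT5, ASAH2, SYNC, CALHM3, TK2 and TWF1 the SD of the interaction lay between 0.43 and 0.79, for interactions of 0.50 to 0.89. The mean of the direct arrays was at least 0.5 times the response with CHX in 0 of the 8 genes, and in 1 of the 5 above 0.

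Besides these classes, a pair of lineage factors had experiment means of opposite sign with and without CHX. FOXA1, the pioneer factor that opens chromatin for the androgen receptor, had 0.36 and 0.38 with CHX, against −0.11 and −0.37 without CHX, and 0.49 and 0.16 on the direct arrays. Without CHX the dyes of experiment 1 differed in sign for FOXA1, with 0.13 with treated RNA in Cy3 and −0.35 in Cy5. FOXA1 fell by 2.02 with CHX alone. GATA2, another partner of the receptor, had 0.27 and 0.26 with CHX, against −0.19 and −0.28 without CHX, with 0.11 and 0.31 on the direct arrays. The coactivator CREBBP had 0.08 and 0.19 with CHX, against −0.16 and −0.03 without CHX. These were 3 members with an interaction below 0 in all 4 combinations of the 20 measured cofactors and lineage factors (15%, near the 11.1% of all genes). In 0 members was it above 0 in all 4, against 8.19% of all genes. The list's median of −0.02 was near that of all genes, and it lay at 0.04 and 0.05 when arrays were scaled or quantile normalised.

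In androgen-repressed genes the interaction was mostly below 0. The median response of 18 measured members was 0.02 with CHX, against −0.12 without CHX. The interaction was above 0 in 4 of them (22.2%), against 47.2% of all genes. In another 4 (22.2%) it was below 0 in all 4 combinations, against 11.1% of all genes. CAMK2N1, an inhibitor of calcium/calmodulin-dependent kinase II, had 0.36 and 0.00 with CHX, against −0.64 and −0.29 without CHX. OPRK1, the kappa opioid receptor, had 0.00 and 0.19 with CHX, against −0.23 and −0.58 without CHX. UGT2B11, of the family that conjugates androgens, had 0.08 and 0.16 with CHX, against −0.10 and −0.25 without CHX, and near-identical relatives may share its probes. IGFBP3, also below 0 in all 4, had 0.19 and 0.19 with CHX, against 0.09 and 0.02 without CHX, so it was not repressed here.

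Among lists of general cell functions, oxidative phosphorylation leaned below 0. Of 60 subunits, 20 (33.3%) had an interaction below 0 in all 4 combinations and 2 above 0 in all 4, against 11.1% and 8.19% of all genes, with a median response of 0.00 with CHX, against −0.10 without CHX. NDUFA6 of complex I had 0.43 and 0.08 with CHX, against −0.13 and −0.47 without CHX, and the median interaction of the list was −0.10 and −0.14 in the 2 experiments. COX6A1 (−0.52), NDUFV1 (−0.44) and UQCRQ (−0.41), of complexes that carry electrons to oxygen, had the next interactions by size. Replication-dependent histones, with 14 of 53 genes below 0 in all 4 (26.4%), and cytoplasmic ribosomal proteins, with 10 of 67 (14.9%, near the 11.1% of all genes), had median interactions of −0.06 and −0.07. H1-2, a linker histone, had 0.05 and −0.02 with CHX, against −0.42 and −0.50 without CHX, and H2BC12 and H2BC8 had interactions of −0.61 and −0.56. Histone genes are near copies of each other and their probes may share signal. RPL4, RPS3, RPLP2 and RPL29 had interactions of −0.53, −0.51, −0.43 and −0.42.

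Endoplasmic reticulum chaperones had interactions mostly above 0, with medians that differed between experiments. Of 37 measured genes 29 had an interaction above 0, in 11 (29.7%) it was above 0 in all 4 combinations and in 2 below 0 in all 4, against 8.19% and 11.1% of all genes, and the median was 0.21 in experiment 1 and −0.02 in experiment 2. P4HB, a protein disulfide isomerase, had −0.34 and −0.34 with CHX, against 0.02 and 0.30 without CHX, and SDF2L1, of the chaperone complex in that compartment, had −0.01 and −0.09 with CHX, against 0.24 and 0.57 without CHX. The 2 genes below 0 in all 4 were ERP29 and CREB3L4. ERP29, of the same compartment, had 0.28 and 0.35 with CHX, against −0.23 and −0.36 without CHX, and −0.03 and −0.01 on the direct arrays. The transcription factor CREB3L4, which is rich in prostate, had 1.11 and 0.07 with CHX, against 0.27 and −0.02 without CHX.

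In metabolic lists the interaction was above 0 in all 4 combinations in 1 of 34 genes of amino acid supply (2.94%) and below 0 in 7 (20.6%). The counts were 1 and 2 of 12 in the polyamine list (8.33% and 16.7%). In sterol and fatty acid synthesis they were 4 and 5 of 30 (13.3% and 16.7%). The shares of all genes were 8.19% above 0 and 11.1% below 0. SLC3A2, the heavy chain of amino acid transporters, had 0.24 and 0.36 with CHX, against −0.22 and −0.55 without CHX, and NUPR1, a stress-induced chromatin protein, had 0.22 and 0.09 with CHX, against −0.28 and −0.23 without CHX. ODC1, the first enzyme of polyamine synthesis, had 0.11 and −0.10 with CHX, against 0.30 and 0.37 without CHX, and OAZ1, the antizyme that lowers it, had 0.23 and 0.24 with CHX, against −0.10 and −0.32 without CHX. In sterol and fatty acid synthesis TM7SF2 had an interaction of −0.62 and PMVK of −0.37, while FADS1, a fatty acid desaturase, had 0.37. Immediate-early genes, of which 27 of 51 rose and 2 fell with CHX alone (all genes 20.5% and 17.4%), had a median interaction of 0.00, with 4 members above 0 and 8 below 0 in all 4 combinations. Markers of basal, stromal and leukocyte cells had a median interaction of −0.05 over 15 genes.

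**Figure D4:**
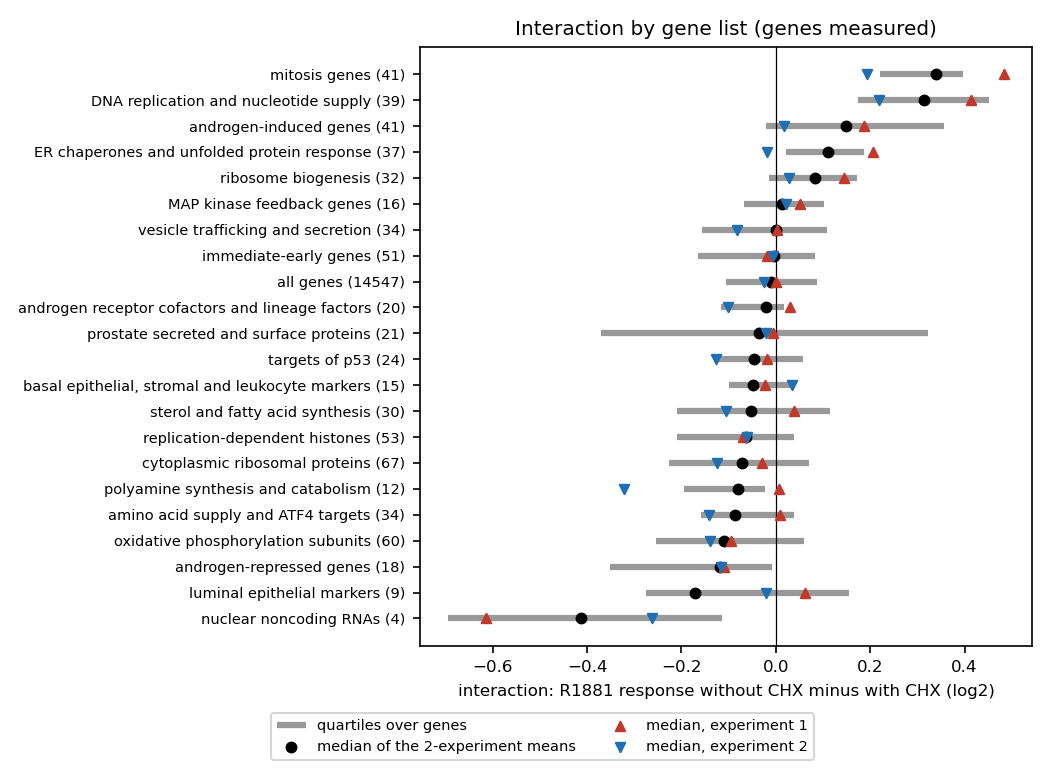
Interaction (log2, response without CHX minus with CHX) by gene list, with the number of genes measured. Black points are medians of the mean over 2 experiments, triangles the medians in each experiment and grey bars the quartiles over genes. Mitosis and DNA replication stand highest at 0.34 and 0.31, with both experiments above 0, and nuclear noncoding RNAs lowest.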

How the data were processed

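RNA of LNCaP cells was measured on 2-colour arrays with 27648 probes. The deposited log2 ratios are 1 value per probe and array with 0 missing. The log base, numerator, image analysis and normalization by the authors are not given in the sources used here; array medians lie between −0.0035 and 0.0037. If the base were not 2, sizes would change by 1 factor and calls would not. Every array was multiplied by −1.

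Probes were named from the platform table through RefSeq (17711 with 1 symbol, 9937 unnamed) and averaged per gene (more than 1 probe for 2057 of 14547 genes). Dye swaps compare the same extracts, so their arrays were averaged, giving 6 log ratios, n = 2 culture experiments per treatment. The model (limma 3.58.1, R 4.3.3) had a mean for each treatment, 3 residual and 2.57 prior degrees of freedom, and p-values were adjusted over all genes. Log ratios enter it as independent, which overstates the error of the interaction wherever they come from the same control culture. The procedure was tested on simulated data with independent noise and set interactions larger than those of the sorted genes. That test does not bear on interactions of the sizes given here. The direct arrays are values with no test. No intensities exist here, so dim spots stayed in, and the number of arrays limits the precision.

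Classes followed the rule in the text, and up to 12 genes per class and direction by size of the interaction, up to 4 per list among those of 1 sign in all 4 combinations, and KLK3, KLK2, TMPRSS2 and FKBP5 were named; any other gene named was picked with its values known. Members, 21 lists and the rule were chosen with earlier results of these data known. Alternatives were other scalings, single dyes, single probes, a replicate block, left-out log ratios and other sizes.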

Additional observations from a re-analysis of the deposited data

How the results depend on the processing

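The interaction gave 0 calls with median subtraction, in either dye alone, with single-probe or agreeing-probe genes, for each probe tested alone and without any 1 of the 6 log ratios, and 1 call with scale and 3 with quantile normalization. R1881 alone gave 300 and 835 calls under these scalings, 2 for each probe tested alone, and 0 to 1 when 1 log ratio was left out, so the call of TMPRSS2 is lost without either experiment of R1881 or of CHX plus R1881. CHX alone gave 3223 calls under quantile normalization. Both scalings stretch the R1881 arrays by construction, whose log ratios had an SD over genes of 0.13, against 0.58 for CHX. Of the 57 genes lost from above 0, all 57 were again in that class under both scalings, which favour it by this stretch, and under median subtraction. At a size of 0.4 all 57 returned by the rule itself, since only the threshold was lowered. At 1.5-fold 38 remained, and 55 with the direct arrays, an alternative chosen after seeing the data.

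Class sizes moved as follows. Lost responses numbered 279 above and 174 below 0 with scale, 572 and 401 with quantile normalization, 98 and 49 at a size of 0.4, and 7 below 0 at 1.5-fold. Kept responses numbered 5 above and 2 below 0 with scale normalization, 4 above 0 with quantile normalization, 17 and 3 at a size of 0.4, and 0 below 0 with the direct arrays. Of the 8 genes kept above 0, 1 was again in that class with scale and 0 with quantile normalization, 7 with median subtraction and 4 with the direct arrays, and the 1 gene kept below 0 was in it with median subtraction but with neither scaling. Responses larger with CHX numbered 3 above and 2 below 0 with scale, 0 and 1 with quantile normalization, 3 and 3 at 1.5-fold, 13 above 0 at a size of 0.4, 24 and 35 with signs taken by experiment, and 52 above 0 with the direct arrays, of which 1 (TNK2) was shared. With scale and quantile normalization 1 and 0 of the 5 above 0, and 2 and 1 of the 8 below 0, were again in these classes.

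Some gene interactions changed sign, and the cause was not tested. Under scale normalization C1orf116 had 0.74 and ZBTB16 0.52, and under quantile normalization 1.14 and 1.09, with CREB3L4 at 0.043. BUB1 had −0.57 with treated RNA in Cy5 alone. Single probes gave 0.0041 for C1orf116, −0.23 for KLK2 and −0.49 for KLK3. The direct arrays gave 0.11 for ASXL3, 0.23 for CREB3L4, 0.17 for MUC8 and 0.0195 for RPL4. With 1 log ratio left out the interaction ranged from −0.0203 to 0.49 in DEGS1, −0.83 to 0.92 in BUB1, −1.25 to 0.32 in CREB3L4, −0.18 to 0.61 in GHR, −0.69 to 0.0516 in NIPSNAP3B, −1.07 to 0.22 in RPL29, −1.12 to 0.10 in RPS3, −0.0813 to 0.73 in UAP1, −0.0494 to 1.05 in TWF1, −0.18 to 0.0119 in C1orf116, −1.23 to 0.0026 in CHRDL2 and −0.88 to 0.062 in UQCRQ. A treatment left with 1 log ratio is assumed to vary like the others.

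The replicate numbers of the labels do not say that cultures were paired. Deviations of equal numbers correlated over genes at 0.17 between R1881 and CHX plus R1881, 0.29 between R1881 and CHX and 0.56 between CHX plus R1881 and CHX, with 2 numbers only. With the replicate block the interaction gave 0 calls, as it did from the 2 differences per gene, R1881 alone gave 2 and CHX alone 6545.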

Other observations

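A further group was looked for after the values were seen: genes whose R1881 response had 1 sign in all 4 combinations of experiment and dye without CHX, the opposite sign in all 4 with CHX, and a mean of at least 0.2 (log2) in size in both. There were 42 such genes of 14547, 12 above 0 and 30 below 0 without CHX, and since both responses were used to find them they carry no test. By unadjusted p of the interaction the foremost of the 30, none of them called, were the secreted phospholipase PLA2G2A, with 0.53 and 0.34 with CHX, against −0.40 and −0.38 without CHX, and NAMPT, the enzyme that recycles nicotinamide to NAD, with 0.30 and 0.31 with CHX, against −0.44 and −0.39 without CHX. The melanosome and lysosome glycoprotein GPNMB had 0.24 and 0.55 with CHX, against −0.42 and −0.43 without CHX. DOCK4, an exchange factor for small GTPases, had 0.35 and 0.34 with CHX, against −0.27 and −0.42 without CHX. On the direct arrays PLA2G2A had 0.35 and 0.46, GPNMB 0.36 and 0.15, DOCK4 0.20 and 0.11, and NAMPT only 0.01 and 0.10. NAMPT rose by 2.94 with CHX alone. MID1, GATA2, STEAP2 and SLC3A2 were also in this group. Both direct arrays had the sign of the response with CHX in 25 of the 30 genes and in 7 of the 12, against 34.5% of all genes. These arrays are taken to share their RNA with experiment 1. The group was picked for 1 sign with CHX and all genes were not, so its higher share adds no support.

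UGT2B15, which inactivates androgens by adding glucuronic acid, missed that group by the sign of 1 combination: it had 0.31 and 0.45 with CHX, against −0.32 and −0.62 without CHX, and 0.27 and 0.25 on the direct arrays. Close relatives may share its 2 probes. By the same class rule, 23 of the 9937 unnamed probes had a response lost from above 0 and 6 from below 0, 4 had a kept response, and in 4 above 0 and 17 below 0 it was larger with CHX. The same counts among the 14547 genes were 57, 16, 9, 5 and 8. The unnamed probes are single values, whereas genes were averaged over their probes.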
